A study of Mus musculus with 4 samples.

Results

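The genes described here mark endothelial cells, which line the blood and lymphatic vessels and the chambers of the heart. They were taken by symbol from a list of 44 endothelial genes. The authors' table held 43 of them, among 48316 gene names. The remaining name, Npr3l, matched no row and has no value here. All 43 are protein-coding and lie on 13 mouse chromosomes. Messenger RNA had been sequenced from cardiomyocytes that were isolated by Langendorff perfusion from mouse hearts. The MHC control group (2 libraries) carried the genotype labelled MHC, and the Rbfox2 OE group (2 libraries) carried the genotype labelled RbFox2, that is, RBFOX2 overexpression. RBFOX2 binds RNA and regulates alternative splicing. Mice of both groups were of the C57BL x FVB strain and had eaten a doxycycline diet for 3 days, so that the controls received the inducing drug as well. The labels used here do not describe the promoter of the transgene, the age of the mice or the number of hearts per library.

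Endothelial cells are held together by VE-cadherin, PECAM1 and claudin 5. They respond to vascular endothelial growth factor, most of it made by neighbouring cells, through the KDR and FLT receptors, and keep their identity through ETS, SOX and Notch factors. Capillaries run beside every cardiomyocyte and pass fatty acids and water to it. The genes were therefore measured in a preparation meant to hold muscle cells, and several of them (Ly6a, Icam1, Vcam1, Cav1, Fabp5, Ets1 and Fli1) are also made by other cell types.

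For each gene the authors' table gave a single pooled FPKM value per group and the limits of an interval around it, but nothing for single libraries. FPKM is a fragment count scaled to the length of the transcript and to the mapped fragments of the library, so levels can be compared between genes. There was thus no replicate spread and no test, the depth in reads is unknown, and every level below is the authors' pooled value with, where given, the authors' bounds in brackets, whose confidence level is not stated. Rbfox2 itself stood at 14.7 FPKM (10.4 to 19.0) in control and at 293 FPKM (214 to 373) in Rbfox2 OE. The preparations had the transcripts of heart muscle: 14 cardiomyocyte markers summed to 65218 FPKM in control and 40772 FPKM in Rbfox2 OE, with Myh6 listed at 0 in both groups because its status was HIDATA, a mark for loci that Cuffdiff did not estimate.

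The endothelial transcripts were more abundant in Rbfox2 OE. Of the 43 genes, 42 had a higher level there, which is 97.7% of them, whereas 46.2% of the 11697 genes compared were higher by any amount. The median log2 ratio between Rbfox2 OE and control, with a pseudocount of 1 FPKM, was 0.70 for the endothelial genes, with a middle range (between the quartiles) of 0.43 to 1.03, against a median of -0.06 and a middle range of -0.52 to 0.38 for all genes compared. At least a 2-fold rise (a log2 ratio of 1 or more) was found for 11 of the 43 genes (25.6%), against 6.97% of all genes, and no member was 2-fold lower, against 10.02% of all genes. The authors' bounds were separate, with Rbfox2 OE higher, for 12 members (27.9%), against 6.67% of all genes. No member had separate bounds with Rbfox2 OE lower, against 9.33% of all genes. The 11 genes past 2-fold all had separate bounds, a combination met by 5.27% of all genes (7.42% for lower levels), and the bounds overlapped for 31 members. FPKM are relative to all mapped fragments of a library. In bulk RNA, more endothelial cells, more RNA per endothelial cell and less RNA from other cells therefore cannot be told apart.

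**Figure D1:**
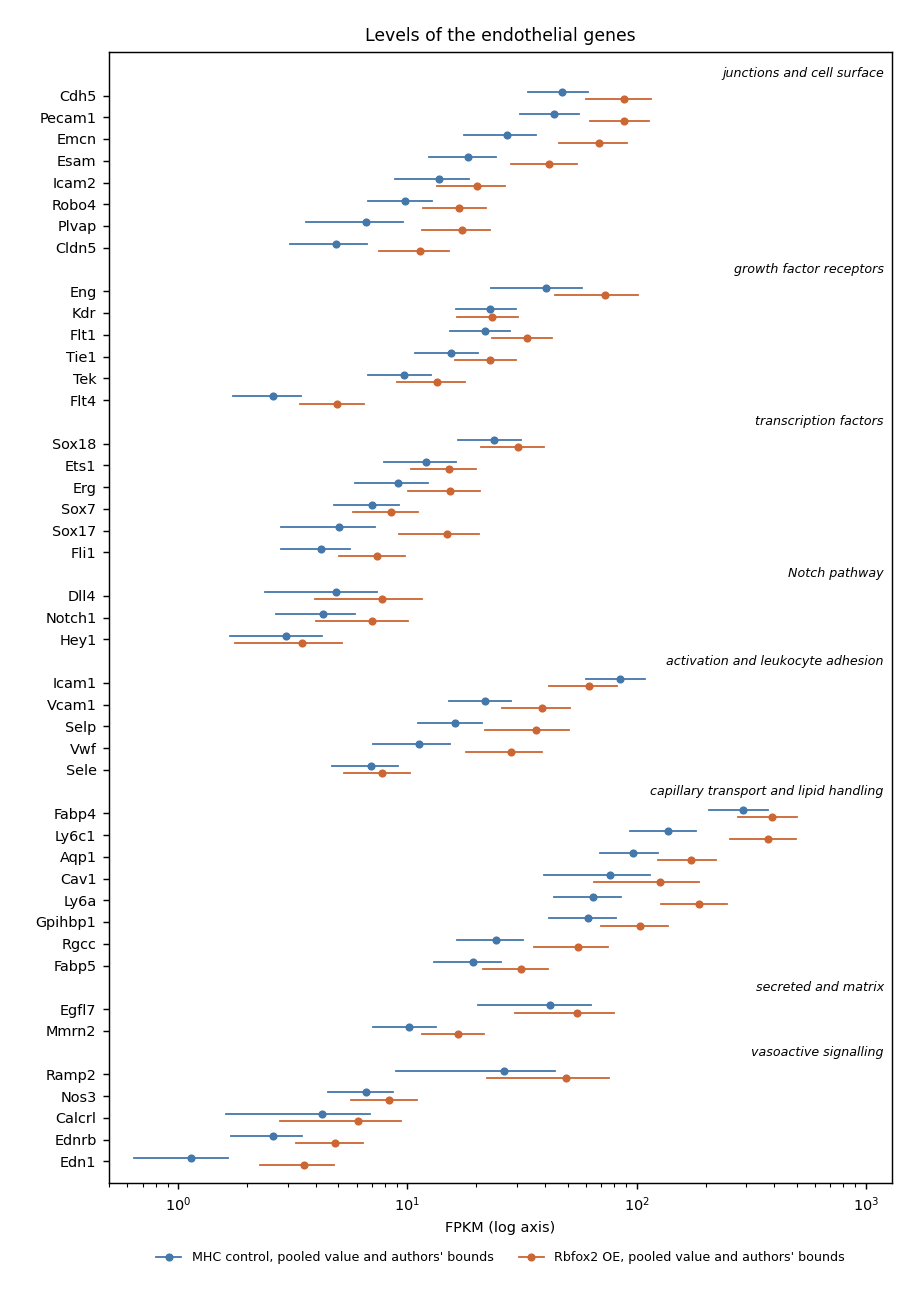
FPKM of the 43 endothelial genes on a log axis, grouped by role, with the pooled value (point) and the authors' bounds (line) of MHC control in blue and Rbfox2 OE in orange. The orange point lies to the right of the blue one for 42 genes, and to its left for Icam1 (84.6 FPKM in the control, 62.0 FPKM in Rbfox2 OE).

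Every one of the 43 genes was above 1 FPKM in both groups, so none entered the comparison through 1 group alone. Their levels summed to 1364 FPKM in control and 2391 FPKM in Rbfox2 OE, a ratio of 1.75. Against the sum of the whole table this was 0.266% in the control and 0.535% in Rbfox2 OE. That sum is not complete: 30 rows in control and 26 in Rbfox2 OE had the status HIDATA, among them Myh6, which was listed at 0. Levels spanned from 1.14 FPKM for Edn1 to 291 FPKM for Fabp4 in the control, and from 3.47 FPKM for Hey1 to 388 FPKM for Fabp4 in Rbfox2 OE. The order of the genes was nearly the same in both groups (Spearman's rho of 0.97 across the 43 genes, a description only). The 3 most abundant genes took 38.5% of the members' sum in the control and 39.8% in Rbfox2 OE. Icam1 moved most among the abundant genes, from the 4th highest level to the 11th, while Ly6a moved from the 6th to the 3rd.

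The sequences upstream of the members were looked at because the genes were higher together. RefSeq promoter windows (GRCm38.p6, 300 bases, from 250 before to 50 after the start of transcription) matched 23 of the 43 members, in 29 windows. Shown are the 250 upstream bases of the 2 members in that table with the highest log2 ratio and separate bounds, Ly6c1 (chr15:75048838-75049087, minus strand) and Emcn (chr3:137340828-137341077, plus strand), written 5′ to 3′ on the gene's strand. Capitals mark matches, on either strand, to any of 5 motifs: the ETS cores CAGGAA and CCGGAA, the SOX core ACAAT, the GATA motif GATAAG and the FOX motif TGTTTAC, which do not overlap one another in these sequences.
Ly6c1: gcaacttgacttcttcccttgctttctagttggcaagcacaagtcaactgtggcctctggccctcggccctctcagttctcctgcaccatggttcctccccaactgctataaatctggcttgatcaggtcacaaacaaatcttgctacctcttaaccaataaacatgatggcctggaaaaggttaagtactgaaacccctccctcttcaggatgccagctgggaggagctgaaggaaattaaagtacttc
Emcn: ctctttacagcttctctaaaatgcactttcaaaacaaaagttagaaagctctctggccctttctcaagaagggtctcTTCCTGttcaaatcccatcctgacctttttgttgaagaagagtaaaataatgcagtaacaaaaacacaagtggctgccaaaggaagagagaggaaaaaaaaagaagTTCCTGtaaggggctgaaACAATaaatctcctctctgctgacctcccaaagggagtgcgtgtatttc
Upstream of Emcn, CAGGAA began 173 and 67 bases before the start of transcription, both times on the opposite strand, and ACAAT began 49 bases before it. These letters were not in the Ly6c1 sequence shown.

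Across the 29 member windows, CAGGAA was in 37.9%, against 30.6% of the 32851 windows in the table. CCGGAA was in 6.90% against 14.9%, ACAAT in 24.1% against 31.0% and GATAAG in 10.3% against 7.44%. TGTTTAC was in none of the member windows and in 3.65% of all windows. The 10 genes with CAGGAA were Calcrl, Egfl7, Emcn, Eng, Erg, Notch1, Robo4, Sele, Tek and Tie1. Of these, 1 (Emcn) had separate bounds, against 6 of the 23 members with a window. A match is a description of the letters and not of binding.

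Genes of the junctions and the cell surface were higher for all 8 members, with a median log2 ratio of 1.03. Their summed level went from 172 FPKM in the control to 352 FPKM in Rbfox2 OE. Of the 8, 4 rose past 2-fold with separate bounds and another, Pecam1, had separate bounds alone. Pecam1 (GRCm38 chromosome 11, 106654217 to 106750628, minus strand), an adhesion molecule of endothelial contacts, stood at 43.7 FPKM (31.1 to 56.3) in control and 88.0 FPKM (62.9 to 113) in Rbfox2 OE. The FPKM ratio was 2.01, but with the pseudocount of 1 FPKM its log2 ratio of 0.99 lay just below the 2-fold threshold, and with a pseudocount of 0.1 FPKM it was 1.01. Cldn5, at 1.08, was the nearest gene to pass.

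Cdh5 encodes VE-cadherin, the adhesion protein of endothelial adherens junctions. It stood at 47.5 FPKM (33.5 to 61.5) and 88.0 FPKM (60.3 to 116), so that the bounds overlapped by a small margin and the log2 ratio was 0.88. The sialomucin gene Emcn (chromosome 3, 137341067 to 137432185, plus strand) rose from 27.1 FPKM (17.7 to 36.6) to 68.3 FPKM (45.8 to 90.7), 2.52-fold, and its groups did not overlap. Plvap, which forms the diaphragms of fenestrae and caveolae, rose from 6.58 FPKM (3.63 to 9.53) to 17.3 FPKM (11.6 to 23.0), 2.63-fold. Plvap shares its locus in the table with Gtpbp3.

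The tight junction genes Esam and Cldn5 rose as well. Esam went from 18.5 FPKM (12.5 to 24.4) to 41.7 FPKM (28.5 to 54.9) and Cldn5 from 4.86 FPKM (3.06 to 6.66) to 11.3 FPKM (7.50 to 15.2). The other two genes of the group had overlapping bounds. Icam2, an adhesion molecule of resting endothelium, stood at 13.7 and 20.1 FPKM, and Robo4, a receptor that stabilises vessels, at 9.73 and 16.9 FPKM.

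Genes of the growth factor receptors were higher in value for all 6 members, but none passed 2-fold and all bounds overlapped (median log2 ratio 0.56). Kdr (chromosome 5, 75932827 to 75978458, minus strand), which encodes VEGF receptor 2, was nearly level: 23.0 FPKM (16.4 to 29.7) in control and 23.5 FPKM (16.5 to 30.5) in Rbfox2 OE, a log2 ratio of 0.03. Relative to Pecam1, the level of Kdr was 0.527 in the control and 0.267 in Rbfox2 OE. Flt1, which encodes VEGF receptor 1, stood at 21.8 FPKM and 33.2 FPKM.

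Flt4, the VEGF receptor of lymphatic endothelium, was the lowest of the receptors, at 2.58 FPKM (1.74 to 3.42) and 4.92 FPKM (3.40 to 6.44), with bounds that overlapped by a narrow margin. The angiopoietin receptor gene Tek stood at 9.70 and 13.4 FPKM and its relative Tie1 at 15.5 and 23.0 FPKM. Eng, a co-receptor for BMP9 and TGF-beta, was the most abundant of the group, at 40.4 FPKM (23.1 to 57.7) and 72.8 FPKM (44.1 to 101).

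Among the 6 transcription factor genes, Sox17 alone passed 2-fold and had separate bounds. Sox17 (chromosome 1, 4490931 to 4497354, minus strand), a factor of arterial endothelium, rose from 5.03 FPKM (2.81 to 7.25) to 14.9 FPKM (9.20 to 20.6), 2.96-fold. Its relatives Sox18 and Sox7, of the same SOX subfamily, were at 23.9 and 30.3 FPKM and at 7.01 and 8.45 FPKM, with log2 ratios of 0.33 and 0.24 and overlapping bounds. The level of Sox17 was 0.210 of that of Sox18 in the control and 0.492 in Rbfox2 OE. A difference between these genes in their response was not tested.

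The ETS factor genes were all higher in value. Erg, a factor of endothelial identity, stood at 9.12 FPKM (5.93 to 12.3) in control and 15.4 FPKM (10.1 to 20.7) in Rbfox2 OE. Fli1 stood at 4.21 and 7.41 FPKM and Ets1 at 12.1 and 15.2 FPKM. All had overlapping bounds. Of the Notch genes, the receptor gene Notch1 stood at 4.30 and 7.003 FPKM, the ligand gene Dll4, of arteries and sprouting tips, at 4.90 and 7.76 FPKM, and the target gene Hey1 at 2.96 and 3.47 FPKM, none with separate bounds.

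**Figure D2:**
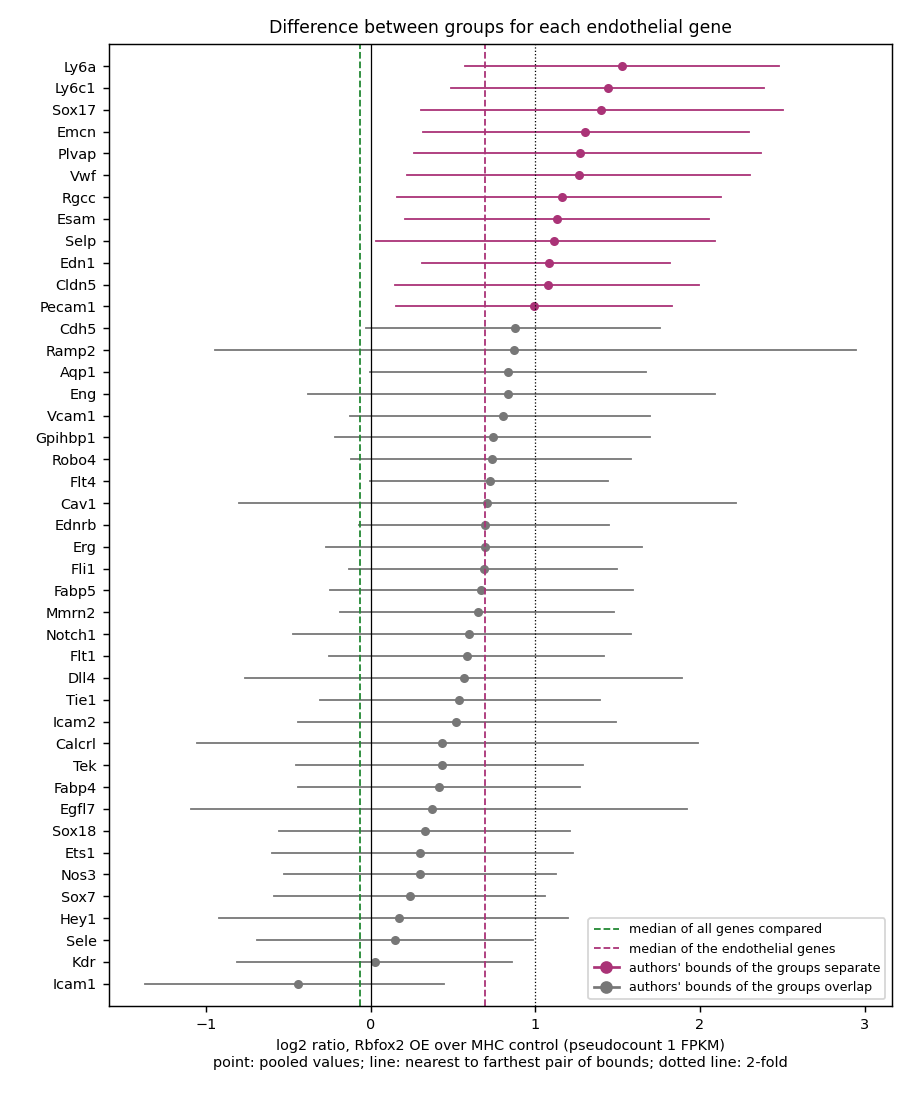
Log2 ratio (Rbfox2 OE relative to MHC control) for each endothelial gene, sorted, with a line from the nearest to the farthest pair of the authors' bounds. The 12 genes in purple have separate bounds, from Pecam1 (0.99) to Ly6a (1.53), and the median of the endothelial genes (0.70) lies to the right of that of all genes compared (-0.06).

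Genes of activated endothelium and leukocyte adhesion did not move as a block. Vwf, the platelet-binding clotting glycoprotein (chromosome 6, 125546774 to 125686679, plus strand), rose from 11.2 FPKM (7.06 to 15.3) to 28.4 FPKM (18.01 to 38.8), 2.53-fold. Selp (chromosome 1, 164115264 to 164150026, plus strand), which encodes P-selectin, rose from 16.2 FPKM (11.2 to 21.3) to 36.3 FPKM (21.7 to 50.9), with bounds apart by a small margin. Selp shares its locus in the table with F5 and 3 other genes.

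Sele, the gene of E-selectin, which inflammatory signals induce, lies 57.6 kb from Selp on chromosome 1. It stood at 6.91 FPKM (4.71 to 9.12) and 7.78 FPKM (5.27 to 10.3), a log2 ratio of 0.15. Icam1 (chromosome 9, 21015985 to 21028817, plus strand), an adhesion receptor for leukocytes, was the 1 member with a lower value in Rbfox2 OE: 84.6 FPKM (60.5 to 109) in control and 62.0 FPKM (41.4 to 82.6), a log2 ratio of -0.44 with overlapping bounds. Vcam1, a second leukocyte receptor, stood at 21.8 FPKM (15.2 to 28.3) and 38.7 FPKM (25.9 to 51.5). The level of Icam1 was 3.89 times that of Vcam1 in the control and 1.60 times in Rbfox2 OE.

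P-selectin and von Willebrand factor are also stored in platelets, so platelet genes were read beside them. The 7 platelet markers summed to 8.05 FPKM in control and 29.3 FPKM in Rbfox2 OE, and Gp1ba was listed at 0 in the control. Of that sum, Pf4 made up 7.34 FPKM (4.19 to 10.5) and 26.9 FPKM (17.8 to 36.0), and Itga2b stood at 0.482 and 0.760 FPKM. The part of platelets in the values of Selp and Vwf was not tested.

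The genes of capillary transport and lipid handling held the highest levels, with a sum of 772 FPKM in control and 1442 FPKM in Rbfox2 OE. All 8 were higher (median log2 ratio 0.79). The 3 that rose past 2-fold with separate bounds were Ly6a, Ly6c1 and Rgcc, which are placed here as capillary genes. None of the transport and lipid genes themselves (Fabp4, Fabp5, Aqp1, Cav1 and Gpihbp1) passed 2-fold or had separate bounds. Ly6a (chromosome 15, 74994877 to 74998031, minus strand), which encodes the surface antigen Sca-1, had the highest log2 ratio of the members, 1.53. It rose from 64.5 FPKM (43.7 to 85.4) to 188 FPKM (128 to 249), 2.92-fold. Ly6c1 (chromosome 15, 75044018 to 75048830, minus strand), a surface protein of capillary endothelium, rose from 138 FPKM (93.5 to 182) to 375 FPKM (255 to 495), 2.73-fold. Rgcc, a regulator of the cell cycle that is abundant in capillary cells, rose from 24.3 FPKM (16.5 to 32.0) to 55.6 FPKM (35.9 to 75.3).

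Fabp4, a fatty acid carrier of capillary endothelium and of fat cells, was the most abundant member in both groups, at 291 FPKM (206 to 375) and 388 FPKM (276 to 500), with a log2 ratio of 0.42 and bounds that overlapped widely. The 6 markers of fat cells summed to 1.15 FPKM in control and 3.03 FPKM in Rbfox2 OE, with Adipoq at 0.0593 and 0.391 FPKM. Fabp5, a second carrier gene 187 kb from Fabp4 on chromosome 3, stood at 19.4 and 31.4 FPKM. The level of Fabp4 was 15.02 times that of Fabp5 in the control and 12.4 times in Rbfox2 OE.

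The remaining genes of the group had overlapping bounds. The water channel gene Aqp1 stood at 96.8 FPKM (69.2 to 124) and 174 FPKM (124 to 223), and its bounds overlapped barely. Gpihbp1, which carries lipoprotein lipase across the capillary wall, stood at 61.5 and 104 FPKM. Cav1, the coat protein of caveolae, stood at 76.7 FPKM (39.3 to 114) and 126 FPKM (65.3 to 187), with wide bounds.

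Ly6a, Ly6c1 and Gpihbp1 belong to the Ly6 gene family, and after their values were seen the other family genes of chromosome 15 were read. The table held 15 such genes, of which 7 entered the comparison. Ly6e, a broadly expressed member, rose from 119 FPKM (82.7 to 154) to 311 FPKM (219 to 403). Ly6c2, which monocytes express, went from 0.318 FPKM (0 to 0.727) to 3.15 FPKM (1.502 to 4.80). Of the 50-base sequences in the annotated transcripts, 32.8% of those of Ly6c1 and 19.0% of those of Ly6a also occurred in another gene, most often Ly6c2 for Ly6c1 and Ly6c1 for Ly6a, so the split of fragments among these genes is uncertain. Slurp2 rose from near 0, at 0.0350 FPKM (0 to 0.149), to 13.7 FPKM (8.46 to 19.0). The family did not move together: Lynx1 fell from 104 FPKM (73.0 to 136) to 28.4 FPKM (19.5 to 37.3).

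Genes of vasoactive signalling were higher in value for all 5 members (median log2 ratio 0.70). Edn1 (chromosome 13, 42301476 to 42307990, plus strand), which encodes the vessel-constricting peptide endothelin 1, was the lowest member in the control. It rose from 1.14 FPKM (0.639 to 1.64) to 3.53 FPKM (2.28 to 4.79), a ratio of 3.10, and the pseudocount of 1 FPKM understates this as a log2 ratio of 1.08. The endothelin receptor gene Ednrb stood at 2.59 and 4.82 FPKM. Nos3, which encodes endothelial nitric oxide synthase, stood at 6.57 FPKM (4.49 to 8.65) and 8.34 FPKM (5.70 to 11.0). Ramp2 and Calcrl, whose products join into an adrenomedullin receptor, were at 26.4 and 49.1 FPKM and at 4.24 and 6.08 FPKM, both with wide bounds. Of the 50-base sequences of Ramp2, 30.7% also occurred in another gene, most often Vps25, which shares its locus.

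The secreted genes Egfl7 and Mmrn2 had overlapping bounds. Egfl7, the host gene of miR-126, stood at 42.0 FPKM (20.4 to 63.6) and 54.7 FPKM (29.4 to 80.1). Mmrn2, an endothelial matrix glycoprotein that binds VEGF, stood at 10.2 and 16.6 FPKM.

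Members that lie within 500 kb of each other form 7 pairs. Both genes of each pair were higher in Rbfox2 OE, but not to the same degree. The pair on chromosome 15 had similar log2 ratios, at 1.44 for Ly6c1 and 1.53 for Ly6a, 46.0 kb apart. Sele and Selp differed most, at 0.15 and 1.117. The others were Pecam1 with Icam2 (0.99 and 0.52), Esam with Robo4 (1.13 and 0.74), Fli1 with Ets1 (0.69 and 0.30), Notch1 with Egfl7 (0.60 and 0.37) and Fabp4 with Fabp5 (0.42 and 0.67). Gene length did not follow the log2 ratio across the 43 members: Spearman's rho was -0.04 with the genomic span, which ran from 1.42 kb for Cldn5 to 227 kb for Erg, and -0.19 with the exonic length. With the control level, rho was 0.16.

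**Figure D3:**
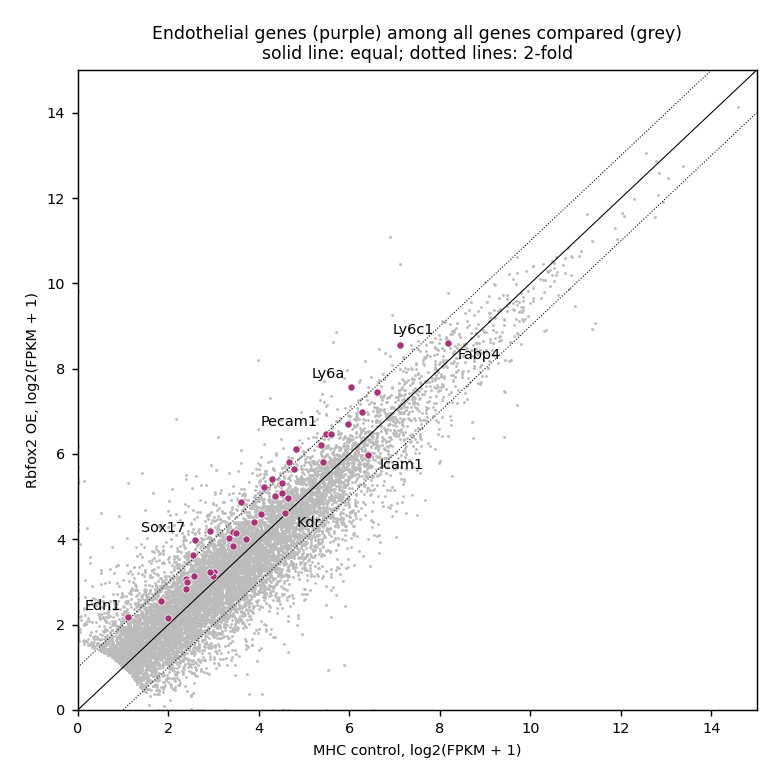
Levels of 11697 genes (grey) and the 43 endothelial genes (purple) as log2(FPKM + 1), MHC control on the horizontal and Rbfox2 OE on the vertical axis. The purple points lie above the line of equal levels except for Icam1, with 11 of them past the upper 2-fold line.

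The ligands of the endothelial receptors were read from a list of 15 vascular growth factors and co-receptors, of which 14 were compared. Of these, 2 rose past 2-fold with separate bounds and 2 fell by the same criteria. Vegfa, the main VEGF ligand and the partner of Kdr, fell from 141 FPKM (87.7 to 194) to 50.8 FPKM (28.5 to 73.2), a log2 ratio of -1.45. Its level was 6.12 times that of Kdr in the control and 2.16 times in Rbfox2 OE. Angpt1, the activating ligand of Tek, fell from 8.43 FPKM (5.82 to 11.0) to 2.33 FPKM (1.501 to 3.15). Its antagonist Angpt2 stood at 0.685 FPKM (0.196 to 1.17) and 1.76 FPKM (0.977 to 2.55), with overlapping bounds, so that Angpt1 exceeded Angpt2 12.3 times in the control and 1.32 times in Rbfox2 OE.

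Pgf, a ligand of Flt1, rose from 2.61 FPKM (1.55 to 3.66) to 9.93 FPKM (6.28 to 13.6), and Angptl4, an inhibitor of lipoprotein lipase, from 1.65 FPKM (0.820 to 2.48) to 11.0 FPKM (7.24 to 14.7). Vegfb, a ligand of Flt1 made by heart muscle, stood at 269 FPKM (192 to 346) and 192 FPKM (136 to 248). Apln, a peptide of sprouting tip cells, stood at 3.94 FPKM (2.62 to 5.26) and 1.47 FPKM (0.894 to 2.05), with separate bounds. The FPKM ratio was 0.374, and only the pseudocount of 1 FPKM put its log2 ratio, -0.998, short of 2-fold. Fgf1 was 2-fold lower with overlapping bounds. The median of the list was 0.19.

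In the list of 11 further Notch genes, 8 were higher and 3 lower in value, 0 passed 2-fold and 0 had separate bounds (median log2 ratio 0.17). The target gene Hes1, the most abundant of them and the one with the largest log2 ratio in size, stood at 19.6 FPKM (13.0 to 26.1) in control and 11.0 FPKM (7.19 to 14.8) in Rbfox2 OE, a log2 ratio of -0.78. The ligand gene Jag2 was also lower in value, at 6.62 and 5.15 FPKM. Notch4, an endothelial receptor, stood at 5.81 and 9.93 FPKM and another ligand gene, Jag1, at 2.47 and 4.77 FPKM. Among 11 endothelin, adrenomedullin and nitric oxide partners (median 0.26), Ramp1, an alternative partner of Calcrl, fell from 2.87 FPKM (1.56 to 4.19) to 0.631 FPKM (0.243 to 1.02). The ligand gene Adm stood at 5.89 and 8.90 FPKM. Npr3, an endocardial receptor that clears natriuretic peptides, had separate bounds, at 3.13 FPKM (2.14 to 4.11) and 6.52 FPKM (4.52 to 8.51).

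Of 9 compared genes of the BMP9 and ALK1 pathway, to which Eng belongs, 3 rose past 2-fold with separate bounds and none fell (median 0.54). Bmp10, a ligand made by atrial muscle, rose from 0.512 FPKM (0.283 to 0.741) to 6.84 FPKM (3.99 to 9.70). The signal transducer Smad1 rose from 3.71 to 10.5 FPKM and Id2, a target, from 10.4 to 24.6 FPKM. Id1 and Id3, targets that endothelial cells express, stood at 36.2 and 42.3 FPKM and at 27.6 and 42.5 FPKM, with overlapping bounds.

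A list of 38 other genes used as endothelial markers or abundant in heart capillaries had a median in the same direction, but lower. Of the 35 compared, 28 were higher and 7 lower, with a median log2 ratio of 0.52. The summed level of the list went the other way, from 2790 FPKM in control to 2346 FPKM in Rbfox2 OE, a ratio of 0.841. In this list 4 genes rose past 2-fold with separate bounds: Ecscr (11.8 to 35.5 FPKM), Procr (0.963 to 3.78 FPKM), Tm4sf1 (16.6 to 40.3 FPKM) and Entpd1 (5.72 to 14.7 FPKM). The 2 most abundant of the list, Lpl and Cd36, which heart muscle also expresses, were lower in value, at 1512 and 1176 FPKM and at 797 and 436 FPKM, both with overlapping bounds. The other lower genes were Tspan18 (log2 ratio -0.49), Afap1l1 (-0.43), Lmo2 (-0.24), Tcf15 (-0.09) and Slc9a3r2 (-0.02), also with overlapping bounds.

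Short lists of endothelial subtypes, which share some genes with the members, were higher too. The median was 0.56 for 9 arterial genes and 1.117 for 7 venous genes. It was 0.82 for 6 lymphatic and 0.73 for 6 endocardial genes. Members made up 3 of the arterial, 4 of the venous, 1 of the lymphatic and 2 of the endocardial genes. Without them the medians were 0.55, 1.004, 0.84 and 0.46, from few genes each. The venous one was the value of Nr2f2 alone. The arterial connexin gene Gja4 rose from 4.85 FPKM (3.12 to 6.59) to 11.5 FPKM (7.73 to 15.2), and the venous factor gene Nr2f2 from 2.06 FPKM (1.14 to 2.98) to 5.14 FPKM (3.12 to 7.17). Of the lymphatic genes, Pdpn rose from 2.45 to 11.5 FPKM and the chemokine gene Ccl21a from 6.78 to 20.7 FPKM, whereas Prox1, a lymphatic factor also present in heart muscle, was lower with separate bounds, at 11.6 and 5.76 FPKM. A difference between the subtypes was not tested.

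The endothelial genes did not stand alone among the non-muscle genes. Of 10 fibroblast markers, 10 were higher and 6 were past 2-fold (median log2 ratio 1.02), and their sum was 479 FPKM in control and 930 FPKM in Rbfox2 OE. Separate bounds as well were found for the collagen genes Col3a1, Col1a1 and Col1a2 and the matrix genes Dpt and Dcn, with log2 ratios from 1.03 (Dcn) to 2.13 (Col3a1). Of 12 macrophage and leukocyte markers, 12 were higher and 11 past 2-fold (median 1.47), with sums of 137 and 463 FPKM. Of the 10 that also had separate bounds, the 6 with the highest log2 ratios were Itgam, Cd68, Lyz2, Cd14, C1qb and Mrc1, from 1.503 (Mrc1) to 2.33 (Itgam). Of 10 smooth muscle and pericyte markers, 8 were higher and 2 lower (median 0.73), with sums of 217 and 356 FPKM. Past 2-fold were 2 of the higher genes and 1 of the lower ones. With separate bounds as well, the smooth muscle actin gene Acta2 rose from 43.7 FPKM (30.7 to 56.8) to 140 FPKM (99.2 to 180). The channel subunit gene Abcc9, which heart muscle also expresses, fell from 58.5 FPKM (41.7 to 75.3) to 16.2 FPKM (11.3 to 21.1). The 5 red blood cell markers had a median of 2.28 and sums of 56.6 and 295 FPKM, and the globin genes Hba-a1, Hba-a2, Hbb-bs and Hbb-bt, near-identical copies in pairs whose split is uncertain, rose past 2-fold with separate bounds. No marker of these 4 lists was listed at 0 in either group. Of 13 cardiomyocyte markers compared, 12 were lower and 5 past 2-fold (median -0.87), and these 5 (Pln, Ryr2, Ldb3, Actc1 and Tnni3) had separate bounds, with log2 ratios from -2.42 (Pln) to -1.01 (Tnni3). The ratio of the sums was 1.75 for the endothelial genes, 1.94 for the fibroblast, 1.64 for the mural, 3.37 for the leukocyte and 5.22 for the red blood cell markers. Their part in the endothelial values was not tested, nor was the difference between the lists.

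**Figure D4:**
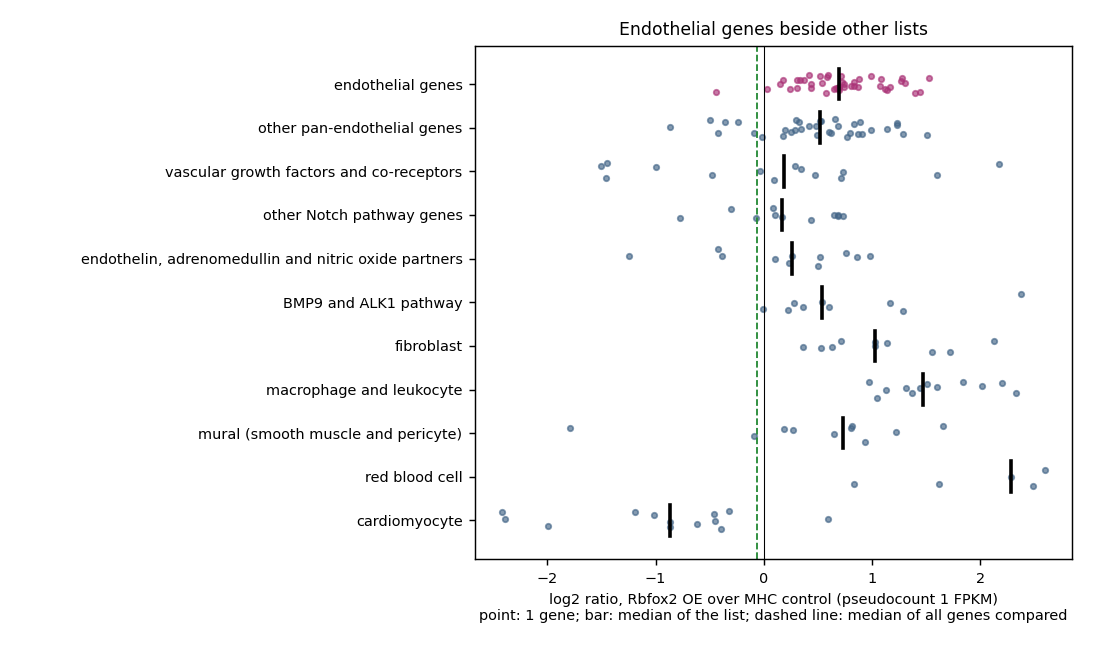
Log2 ratios of the endothelial genes (purple) and of 10 other lists (blue), with 1 point per gene and a bar at each median. The endothelial median of 0.70 lies close to that of the mural markers (0.73), below those of the fibroblast (1.02) and leukocyte (1.47) markers, and on the other side of 0 from that of the cardiomyocyte markers (-0.87).

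Markers of dividing cells were near the lower limit of the table. The 7 proliferation genes summed to 2.59 FPKM in control and 5.20 FPKM in Rbfox2 OE, and 1 of them reached a mean of 1 FPKM. The scale of the table bears on all of these directions. Rescaling both groups without mitochondrial genes and the 10 most abundant genes of each raised every log2 ratio of linear values by 0.15 and moved the median of all genes from -0.06 to 0.07. Under that scale the members past 2-fold numbered 14 and those with separate bounds 18, Icam1 remained lower, at a log2 ratio of -0.29, and the 2-fold genes of the whole table split into 1046 higher and 901 lower in place of 815 higher and 1172 lower. Genes with separate bounds in the whole table numbered 1023 higher and 823 lower, in place of 780 higher and 1091 lower.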

How the data were processed

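Polyadenylated RNA of 4 libraries was prepared with a stranded TruSeq kit, per the labels' protocols. Titles placed 2 libraries in MHC control and 2 in Rbfox2 OE. The deposited FPKM values and their bounds are Cuffdiff estimates of the authors, per the file headers. The submitters' processing notes name Cuffdiff 2.2.1, STAR 2.4.2a and the build GRCm38. The normalization between libraries and the annotation are not given in the sources used here. The table has 1 pooled value per gene and group, and the number of unused columns per library was 0.

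Rows that share a gene name were summed. Log2 ratios used a pseudocount of 1 FPKM, and the 11697 genes whose mean reached 1 FPKM were compared. Calls were a 2-fold difference and, separately, bounds that do not overlap. No p-value was computed. FPKM carry no fragment counts, so counting intervals cannot be given. Of the 43 members, 14 share their listed locus with another gene, and 16 overlap an annotated gene. None lay outside its bounds or lacked the status OK. Coordinates are from GENCODE M21 (GRCm38), in which all 43 identifiers were found. The members and the lists were chosen with earlier results of these data known. Every member is named. Of other lists, genes past 2-fold with separate bounds are named (at most 6 per list), and any gene of the growth factor, Notch, endothelin and adrenomedullin lists. Further genes (the Ly6 family, Id1, Id3, Prox1, Gp1ba, Itga2b and Adipoq) were chosen after their values were seen. So were the lower genes of the other endothelial list (Lpl, Cd36, Tspan18, Afap1l1, Lmo2, Tcf15 and Slc9a3r2). The comparison was tested on simulated data. Alternatives covered the pseudocount, the low-value filter, the fold, the scaling, the status, repeated names and members alone at their locus. Python 3.11.15, pandas 2.3.3 and numpy 2.4.6 were used.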

Additional observations from a re-analysis of the deposited data

How the results depend on the processing

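No paired analysis was possible because neither group has values per library. For the same reason no library was left out and limma was not run. How far the libraries of a group differ is therefore unknown for every result here.

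The median log2 ratio of the endothelial genes lay between 0.51 (pseudocount of 5 FPKM) and 0.84 (rescaled) under its 10 alternatives, and 42 of 43 genes were above 0 under each pseudocount and scaling. That count could not have fallen, because a pseudocount leaves the sign unchanged and both scalings raised every member's log2 ratio. Recomputed under 5 settings, 215 of 215 member log2 ratios kept their sign and moved by less than their bounds allow. The kept signs are no test of the results, because only Icam1, which was below 0, could have changed sign. The small moves under both scalings are no test either. These shifted log2 ratios by 0.15 or less, which is below the limit set by the bounds of any member. Keeping the highest row for repeated names left the member values unchanged. Icam1 ranged from -0.45 to -0.29 and Kdr from 0.03 to 0.18. The 29 members alone at their locus, an alternative added after seeing the data, gave 8 past 2-fold and 9 with separate bounds. The share among all genes alone at their locus was not counted, so these counts have no background to be read against. With a pseudocount of 5 FPKM, which shrinks low genes, 5 members were past 2-fold (Ly6a, Ly6c1, Emcn, Rgcc and Vwf), as were 304 genes higher and 559 lower in the whole table. A 1.5-fold threshold gave 27 members and, in the whole table, 1938 higher with 2582 lower. At 4-fold there were 0 members, 136 higher and 154 lower genes. A minimum mean of 5 FPKM, which leaves fewer genes, gave 492 genes higher at 2-fold and 446 with separate bounds. The growth factor, Notch, endothelin, BMP9 and pan-endothelial lists had 14, 11, 11, 9 and 35 genes compared. They hold no members and leave out the subtype lists. In them 10 genes were 2-fold higher and 4 lower, against 6.97% and 10.02% of all genes. The counts of 10 and 4 became 4 and 2 with a pseudocount of 5 FPKM, 31 and 7 at 1.5-fold, and 2 and 0 at 4-fold. The fibroblast, leukocyte, mural and red blood cell lists had 10, 12, 10 and 5 genes compared. Of these markers, 23 were 2-fold higher and 1 lower, and 7 and 0 at 4-fold. Of 116 list medians recomputed, 2 changed sign, both with a minimum mean of 5 FPKM: the growth factors (-0.03) and the further Notch genes (-0.31).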
